A study of Rattus norvegicus with 16 samples.

Results

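Collagen is modified by 3 families of enzymes before and after it leaves the cell, and transcripts of 10 of these enzymes were followed in injured rotator cuff muscle: the lysyl oxidases Lox, Loxl1, Loxl2, Loxl3 and Loxl4, the lysyl hydroxylases Plod1, Plod2 and Plod3, and the prolyl 4-hydroxylase alpha subunits P4ha1 and P4ha2. They were chosen by gene symbol. All 10 were found among the 17147 genes of the deposited count table and all 10 passed the filter on low counts, as did 11658 genes in total. The tissue was the supraspinatus, a rotator cuff muscle, of Sprague Dawley rats. Each of 4 groups held 4 libraries: unoperated controls (0 days), and muscles taken at 10, 30 and 60 days after both supraspinatus tendons were torn through their full thickness in surgery, combined with suprascapular neurectomy, the removal of part of the nerve that drives it. The operated groups therefore carry both injuries, and the effects of tear and nerve loss cannot be told apart. The labels give neither the age nor the sex of the rats, nor whether any of the libraries share an animal. No sham-operated group was analysed here, so surgery itself and the time since it also cannot be told apart from the injury.

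Procollagen chains are built in the endoplasmic reticulum, where prolyl 4-hydroxylases convert prolines to hydroxyproline, which stabilises the triple helix. These enzymes are tetramers of alpha subunits, which carry the active site, and beta subunits, encoded by P4hb. Lysyl hydroxylases act on lysines of the same chains, Plod1 mainly in the helix and Plod2 mainly in the telopeptides at the chain ends, and Plod3 also adds sugars to hydroxylysine. After secretion, the copper-dependent lysyl oxidases oxidise lysine and hydroxylysine, which then react into the crosslinks that make collagen and elastin fibres stiff and insoluble. In skeletal muscle this machinery is known from the connective tissue around the fibres and from fibrosis.

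Library totals ran from 17.2 to 39.9 M fragments (M, mega). The 60-day libraries had 17.2 to 22.4 M, each below the smallest library of the other groups at 22.9 M, so depth and the 60-day group cannot be told apart. The members had between 11 and 2864 fragments in a library, and the 11 were of Lox in a 0-day library. Levels are given as CPM (a gene's fragments per 1 M, TMM-scaled) and can be compared between libraries for 1 gene but not between genes, which differ in length. The muscle identity of the samples was plain: 7 fibre markers together held between 204372 and 225390 CPM at 0 days. They fell to between 45234 and 50406 CPM at 10 days, and stood at 85226 to 133055 and 124169 to 138453 CPM at 30 and 60 days, with 7, 5 and 4 of 7 called lower and 1 called higher at 60 days. The 7 fibroblast markers, of which Col1a2 is listed at 0 in every library, summed to between 276 and 423 CPM at 0 days and to between 391 and 563, 711 and 850, and 769 and 1455 CPM at 10, 30 and 60 days, with 3, 5 and 6 of 6 tested called higher. At 10, 30 and 60 days, 5, 4 and 3 of 5 tendon markers, 4, 5 and 5 of 5 macrophage markers and 2, 3 and 2 of 3 cartilage or bone markers were called higher, while 6, 4 and 1 of 6 smooth muscle and pericyte markers and 5, 2 and 1 of 5 endothelial markers were called lower. At 60 days 1 tendon marker was called lower, and 1 smooth muscle or pericyte marker and 1 endothelial marker were called higher. All 4 adipocyte markers were called higher at 60 days and none before, and of 5 Schwann cell markers 2 were lower at 10 days, 2 higher at 30 days and all 5 higher at 60 days. Macrophage markers summed to between 13.7 and 27.1 CPM at 0 days and to between 69.9 and 88.2 CPM at 30 days. The part of these shifts in the results below was not tested. In bulk muscle, fewer cells of a type and less RNA per cell cannot be told apart. Scaling mattered as well. With library totals in place of TMM factors, the median log2 difference of all genes from 0 days moved up by 0.66, 0.49 and 0.41 at 10, 30 and 60 days, so each change below is relative to the bulk of genes, and the members whose direction depended on this are named.

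Some of these enzymes rose and others fell, and the start of the gene is shown here for the 3 hydroxylases with the largest changes, Plod2, which rose, and P4ha1 and P4ha2, which fell, chosen after their values were seen. Each line gives the 250 bases before the RefSeq start of the gene, 5′ to 3′, in build GRCr8. Capitals mark ACGTG and GCGTG, the core letters of the hypoxia response element, searched on both strands, so CACGT and CACGC are the same letters on the other strand. ACGTG also lies within the E-box CACGTG.

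Plod2, chr8:101964068-101964317, plus strand: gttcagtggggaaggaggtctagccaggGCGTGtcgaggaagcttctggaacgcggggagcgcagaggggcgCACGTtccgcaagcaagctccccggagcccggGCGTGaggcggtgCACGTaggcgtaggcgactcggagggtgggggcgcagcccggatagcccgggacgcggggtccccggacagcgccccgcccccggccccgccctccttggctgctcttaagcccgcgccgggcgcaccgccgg

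P4ha1, chr20:27844796-27845045, plus strand: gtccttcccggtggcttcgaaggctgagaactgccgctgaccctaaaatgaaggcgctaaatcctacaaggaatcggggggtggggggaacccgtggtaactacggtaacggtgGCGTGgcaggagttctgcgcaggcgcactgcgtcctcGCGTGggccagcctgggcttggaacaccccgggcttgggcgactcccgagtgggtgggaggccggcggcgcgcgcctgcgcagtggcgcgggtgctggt

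P4ha2, chr10:38743644-38743893, plus strand: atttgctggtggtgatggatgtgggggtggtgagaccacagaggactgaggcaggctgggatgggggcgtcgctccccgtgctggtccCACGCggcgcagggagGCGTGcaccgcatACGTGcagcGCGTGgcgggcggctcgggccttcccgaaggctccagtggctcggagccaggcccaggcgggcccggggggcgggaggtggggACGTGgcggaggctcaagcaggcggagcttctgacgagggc

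The window of Plod2 held 2 matches to ACGTG and 2 to GCGTG, that of P4ha2 held 2 and 3, and that of P4ha1 held 0 and 2. Among 33469 rat promoters of this length, 16.6% held ACGTG and 25.9% held GCGTG. The 3 windows were rich in G and C (74.8% in Plod2, 72.4% in P4ha2 and 67.6% in P4ha1 of their bases, against a median of 51.2% over all promoters), and no comparison matched on this was made. The windows of a gene that rose and of a gene that fell thus held the same letters, and a match is no evidence of a bound site. RefSeq windows were matched for 8 of the 10 members, all but Lox and Loxl2. Those of Loxl1 and Loxl4 held neither motif, and those of Loxl3, Plod1 and Plod3 each held 0 matches to ACGTG and 1 to GCGTG.

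At 10 days after injury, 3 members were called higher than at 0 days (Lox, Loxl1 and Plod2), 4 lower (Loxl4, Plod1, P4ha1 and P4ha2), and 3 were not called (edgeR quasi-likelihood test, Benjamini-Hochberg adjusted p under 0.05 over all genes tested). Over all genes, 62.7% were called in either direction, 33.3% higher and 29.4% lower. At 30 days, 4 members were higher (Lox, Loxl1, Loxl3 and Plod2) and 3 lower (Plod1, P4ha1 and P4ha2), beside 64.6% of all genes in either direction, 33.7% higher and 30.9% lower. At 60 days, 6 were higher (Lox, Loxl1, Loxl2, Loxl3, Loxl4 and Plod2) and 3 lower (Plod1, P4ha1 and P4ha2), beside 59.0% of all genes in either direction, 29.9% higher and 29.1% lower. At 10 and 30 days, 7 of 10 members is close to the share of all genes, and the count itself sets the members apart at neither time. The 60-day count was 9 of 10, and 7 to 9 when 1 library was left out in turn. By their libraries, 3 members lay wholly above and 1 wholly below the controls at 60 days, where 50.0% of all genes did not overlap. Their median log2 difference from 0 days was -0.02, 0.30 and 0.63 at 10, 30 and 60 days, against 0.06, 0.05 and 0.04 over all genes tested. Lox, Loxl1 and Plod2 were higher at all 3 times, as were 16.6% of all genes, and Plod1, P4ha1 and P4ha2 were lower at all 3, as were 15.6%. With library totals in place of TMM factors the split was 7 higher and 1 lower at each time, and the 1 lower was P4ha1. With that scaling the median log2 difference of all genes tested was 0.72, 0.54 and 0.45. The share of all genes called was not counted there, so this split is not read as a result about the members.

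**Figure D1:**
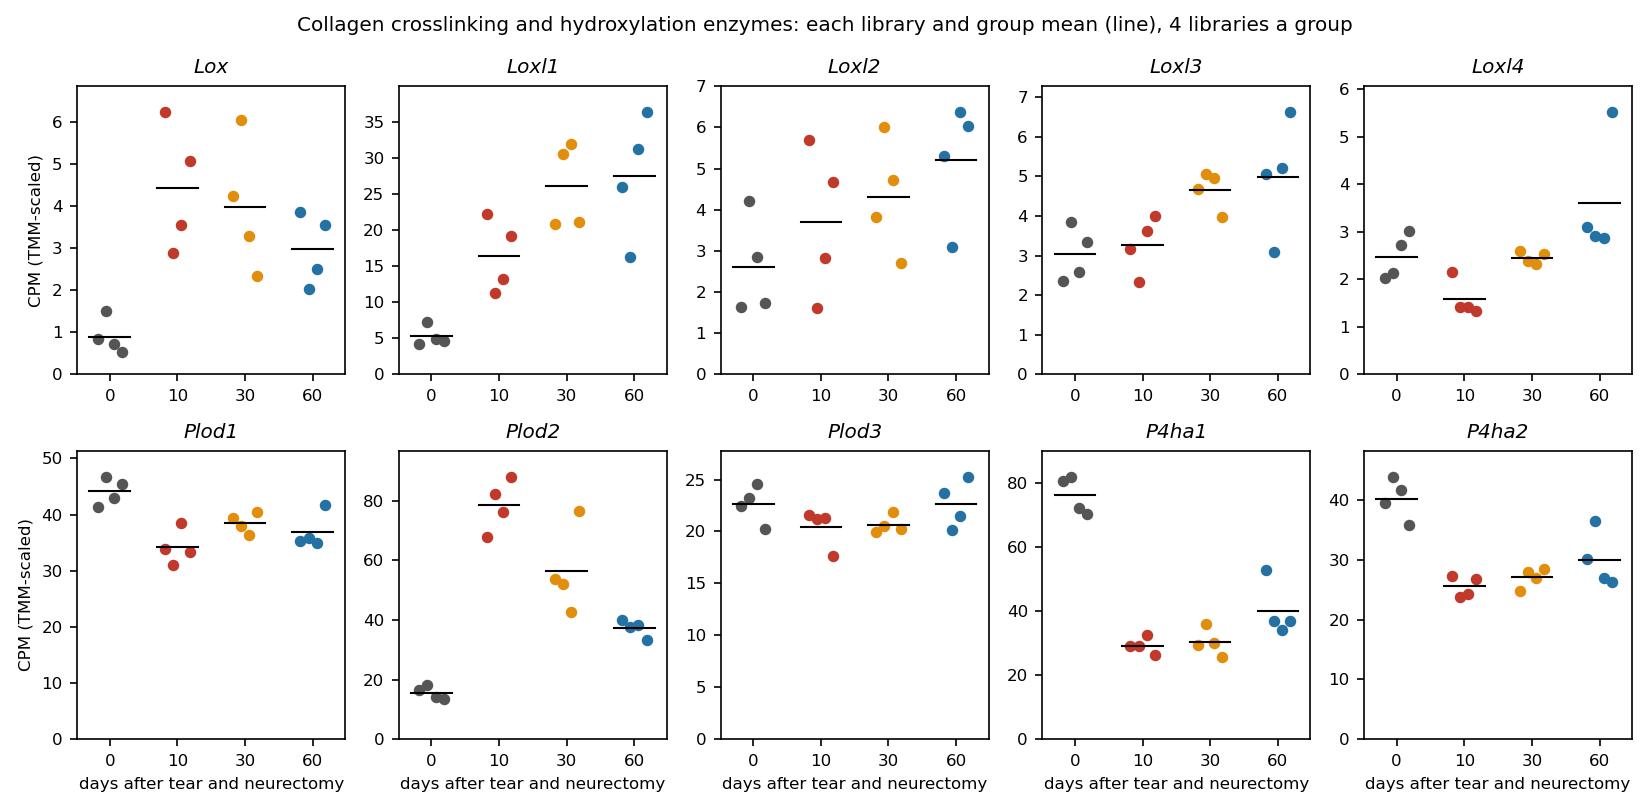
CPM (fragments per 1 M, TMM-scaled) of each of the 10 enzymes on the vertical axis, each panel with its own scale from 0, against days after injury, with each point a library and the line the mean of the 4 libraries of a group. Plod2, Lox and Loxl1 lay above all 0-day libraries at all 3 times, and P4ha1 lay below all of them.

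Of the prolyl 4-hydroxylase subunits, P4ha1, the alpha subunit of the main isoenzyme in most cells, had the largest fall of the 10 members. Its 0-day libraries had 80.5, 81.8, 72.2 and 70.1 CPM. The 10-day libraries had 29.2, 29.1, 32.4 and 26.1 CPM, the 30-day libraries 29.5, 35.8, 30.1 and 25.7 CPM, and the 60-day libraries 52.8, 36.9, 34.1 and 36.7 CPM. No operated library reached the lowest control library, and the 10-day and 30-day values lay in the same range. P4ha1 was 2.61-fold lower at 10 days (log2 -1.38 ± 0.13 SE, adjusted p = 8.99e-08), 2.51-fold lower at 30 days (-1.33 ± 0.13, adjusted p = 1.96e-07) and 1.90-fold lower at 60 days (-0.92 ± 0.13, adjusted p = 1.36e-05), by edgeR. These calls held in all 11 alternative settings and in all 16 fits that left out 1 library, and with library totals the log2 differences were -0.72, -0.84 and -0.52. P4ha1 was higher at 60 than at 10 days by log2 0.46 ± 0.13 (edgeR adjusted p = 0.00482; 0.20 and not called with library totals). It was also higher at 60 than at 30 days by 0.41 ± 0.13 (edgeR adjusted p = 0.0298), a call that was lost on leaving out 30-day library 1, 3 or 4 or 60-day library 1, without the last of which the difference was 0.24, and with library totals, the title letter (L or R) as a covariate or a fit of these 2 groups alone.

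P4ha2, the alpha subunit of the second isoenzyme, had 39.4, 43.8, 41.7 and 35.8 CPM at 0 days. It had 27.4, 23.8, 24.2 and 26.8 CPM at 10 days, 24.8, 28.0, 26.9 and 28.5 CPM at 30 days, and 30.1, 36.4, 26.9 and 26.4 CPM at 60 days. The libraries at 10 and 30 days lay below all controls, and at 60 days 1 library, at 36.4 CPM, lay within their range. P4ha2 was 1.57-fold lower at 10 days (log2 -0.65 ± 0.10, adjusted p = 2.09e-05), 1.49-fold lower at 30 days (-0.57 ± 0.10, adjusted p = 8.94e-05) and 1.34-fold lower at 60 days (-0.43 ± 0.10, adjusted p = 0.00151), by edgeR, whereas with library totals the differences were 0.005, -0.079 and -0.018 and none was called. P4ha2 thus fell relative to the bulk of genes, and no fall relative to all fragments was detected. The calls held in the other 10 of the 11 settings and in all 16 fits without 1 library. No difference between operated times was called, and the 60-day against 10-day difference was log2 0.23 (edgeR adjusted p = 0.0538). That difference was called with RLE factors (0.26, edgeR adjusted p = 0.0364), upper-quartile factors (0.31, 0.0101), a filter at a mean of 1 CPM (0.26, 0.0332) and DESeq2 (0.25, adjusted p = 0.0419). It was also called without 0-day library 2 or 4, 10-day library 1, or 60-day library 3 or 4, and with library totals it was -0.023.

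P4ha3, the alpha subunit with the most restricted expression, is in the list of other collagen-processing genes and moved the other way. Its raw fragments were 2, 1, 0 and 4 at 0 days, 108, 21, 39 and 90 at 10 days, 48, 92, 58 and 37 at 30 days, and 13, 14, 23 and 20 at 60 days. Every operated library lay above every control, though the controls lay near the floor of 3 fragments, so the size of the fold rests on few counts. The fitted log2 differences were 4.55 ± 0.63, 4.51 ± 0.63 and 3.41 ± 0.70 (edgeR adjusted p = 9.40e-06, 1.24e-05 and 0.000611). P4hb, the beta subunit, had 283 ± 7.35, 367 ± 6.18, 259 ± 16.01 and 219 ± 17.2 CPM (SD, n = 4) at 0, 10, 30 and 60 days. It was called higher at 10 days (log2 0.38) and lower at 60 days (-0.37, edgeR adjusted p = 0.000227; 0.037 and not called with library totals), and was not called at 30 days (-0.13; 0.37 and called higher with library totals). At 10 days the beta subunit and the alpha subunit P4ha3 were thus called higher while the alpha subunits P4ha1 and P4ha2 were called lower. With library totals P4ha2 was not called (0.005).

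Among the lysyl hydroxylases, Plod2, the telopeptide lysyl hydroxylase, rose most. It had 16.4, 18.2, 14.2 and 13.3 CPM in the 0-day libraries and 67.9, 82.4, 76.4 and 88.0 CPM at 10 days. It then had 53.9, 52.2, 42.7 and 76.6 CPM at 30 days and 40.1, 37.5, 38.2 and 33.3 CPM at 60 days. Every operated library lay above every control, the 10-day and 30-day groups overlapped through 30-day library 4, and all 60-day libraries lay below all those at 30 days. Plod2 was 5.06-fold higher at 10 days (log2 2.34 ± 0.15, adjusted p = 3.23e-09), 3.62-fold at 30 days (1.86 ± 0.15, adjusted p = 4.14e-08) and 2.40-fold at 60 days (1.26 ± 0.15, adjusted p = 3.95e-06), by edgeR. These calls held in all 11 settings and all 16 fits without 1 library. The level declined between operated times, by log2 -0.48 ± 0.14 from 10 to 30 days (edgeR adjusted p = 0.0112), -0.60 ± 0.15 from 30 to 60 days (0.00833) and -1.08 ± 0.15 from 10 to 60 days (1.01e-05).

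Plod1, the helical lysyl hydroxylase, had 41.4, 46.7, 42.9 and 45.5 CPM at 0 days, 33.9, 31.1, 38.5 and 33.4 CPM at 10 days, 39.4, 38.0, 36.4 and 40.5 CPM at 30 days, and 35.3, 35.8, 35.01 and 41.7 CPM at 60 days. The 10-day and 30-day libraries lay below all controls, and 1 library at 60 days reached the lower end of the control range. The differences were small: 1.29-fold lower at 10 days (log2 -0.37 ± 0.08, adjusted p = 0.000572), 1.14-fold at 30 days (-0.20 ± 0.08, adjusted p = 0.0362) and 1.19-fold at 60 days (-0.26 ± 0.08, adjusted p = 0.0102), by edgeR. With library totals they turned to 0.29, 0.30 and 0.16, of which the first 2 were called (edgeR adjusted p = 0.0124 and 0.0115) and the last was not (0.171), so no direction for Plod1 holds under both scalings. The 30-day call was also lost on leaving out 0-day library 2 or 4 or 30-day library 2 or 3 and with a filter at a mean of 1 CPM, and with upper-quartile factors the 30-day and 60-day differences were -0.07 and -0.11 and were not called.

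Plod3, which both hydroxylates lysine and glycosylates hydroxylysine, was called at no time. Its levels were 20.2 to 24.5 CPM at 0 days, 17.7 to 21.6 at 10 days, 19.9 to 21.9 at 30 days and 20.1 to 25.2 at 60 days, and all groups overlapped. The log2 difference from 0 days was -0.15 at 10 days (95% interval -0.33 to 0.04), -0.13 at 30 days (-0.32 to 0.06) and 0.003 at 60 days (-0.19 to 0.19), and none was called by edgeR (adjusted p = 0.163, 0.207 and 0.981). With library totals the differences were 0.51, 0.36 and 0.41 and all were called higher. In the RefSeq annotation Plod3 overlaps Znhit1 and the microRNA gene Mir702, and Loxl3 overlaps Htra2. Lox overlaps the pseudogene Rps3a-ps12, and P4ha1 overlaps the pseudogene Snrpd2l and a small nuclear RNA gene. Since the strand setting of the counting is not given, reads of these overlapping genes may have been shared.

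Plod2 and Plod1 hydroxylate different sites of the same chains, and their ratio within a library does not depend on the scaling. The ratio of Plod2 to Plod1 fragments was 0.396, 0.390, 0.331 and 0.293 at 0 days and 2.00, 2.65, 1.98 and 2.64 at 10 days. It was 1.37, 1.38, 1.17 and 1.89 at 30 days and 1.13, 1.05, 1.09 and 0.799 at 60 days. No 2 groups overlapped: the ratio was highest at 10 days, declined in turn at 30 and 60 days, and stayed above the controls. The log2 ratio differed from 0 days by 2.71, 2.03 and 1.53, each with the smallest p that 4 against 4 libraries allow (two-sided exact permutation test, p = 0.0286, adjusted over 36 tests 0.0735). No ratio in this family of 36 tests passed an adjusted threshold of 0.05. The ratio does not compare the transcript numbers of the 2 genes, since they differ in length.

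**Figure D2:**
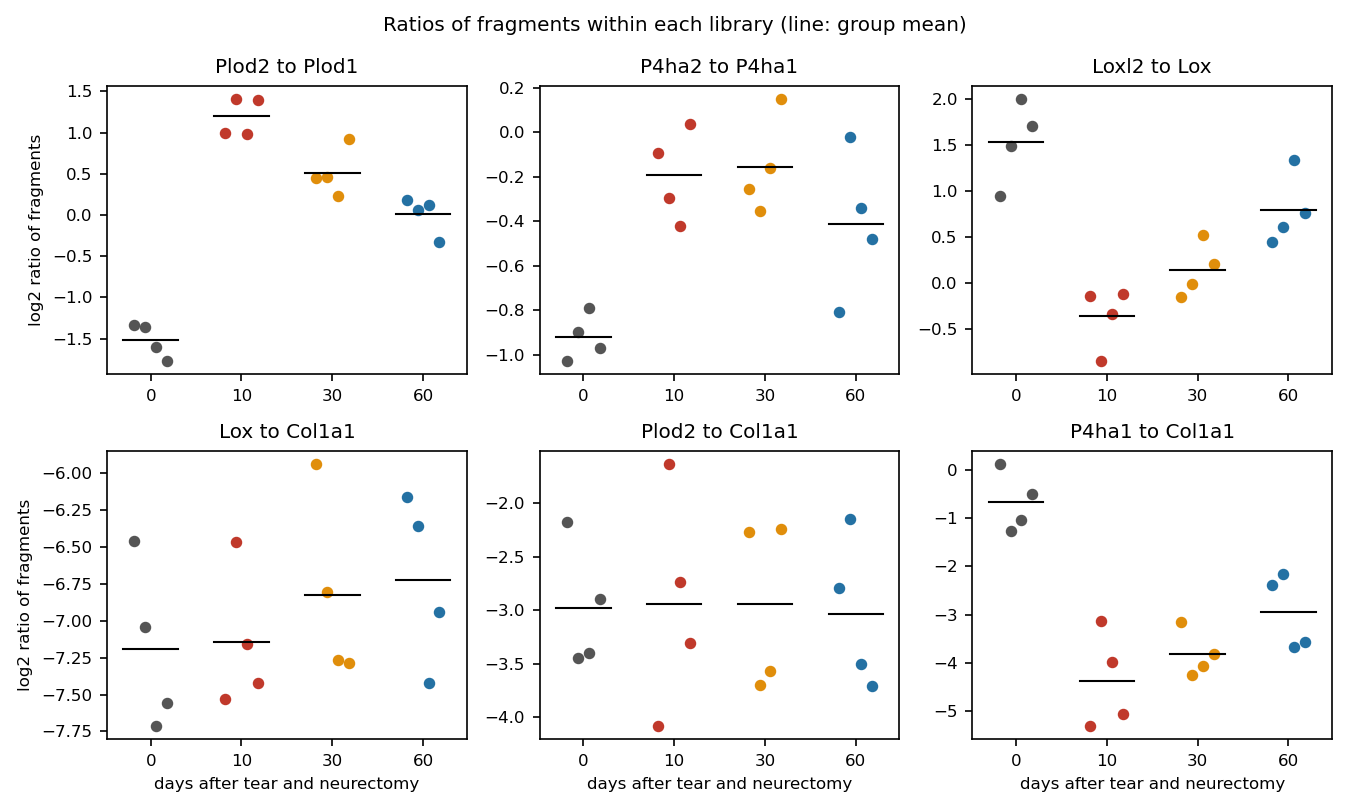
Log2 ratios of fragments within each library (vertical axis) against days after injury, each point a library and the line the mean of the 4 libraries of a group. The Plod2 to Plod1 ratio shows no overlap between any of the 4 groups, while the ratios of Lox and Plod2 to Col1a1 overlap at all times.

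Lox, the founding lysyl oxidase, had 0.843, 1.50, 0.714 and 0.527 CPM at 0 days. It had 6.24, 2.89, 3.56 and 5.07 CPM at 10 days, 4.25, 6.05, 3.28 and 2.33 CPM at 30 days, and 3.87, 2.02, 2.51 and 3.56 CPM at 60 days. All operated libraries lay above all controls, and the 3 operated groups overlapped each other. Lox was 4.83-fold higher at 10 days (log2 2.27 ± 0.37, adjusted p = 5.17e-05), 4.36-fold at 30 days (2.13 ± 0.37, adjusted p = 0.000110) and 3.27-fold at 60 days (1.71 ± 0.38, adjusted p = 0.00117), by edgeR. The calls held in all 11 settings and all 16 fits without 1 library. No difference between operated times was called. From 10 to 60 days it was log2 -0.56 ± 0.33 (edgeR adjusted p = 0.148), and -0.81 with library totals (edgeR adjusted p = 0.0406).

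Loxl1, the lysyl oxidase best known for elastic fibres, had 4.16, 7.26, 4.95 and 4.60 CPM at 0 days and 22.3, 11.2, 13.2 and 19.2 CPM at 10 days. It had 20.9, 30.5, 32.0 and 21.1 CPM at 30 days and 26.0, 16.3, 31.2 and 36.4 CPM at 60 days. All operated libraries lay above all controls, and the operated groups overlapped. Loxl1 was 3.11-fold higher at 10 days (log2 1.64 ± 0.28, adjusted p = 9.89e-05), 4.93-fold at 30 days (2.30 ± 0.28, adjusted p = 4.16e-06) and 5.19-fold at 60 days (2.38 ± 0.28, adjusted p = 4.58e-06), by edgeR, in all 11 settings and all 16 fits without 1 library. Unlike Lox, its mean was highest at 60 days, though the difference between the 2 genes' courses was not tested. Loxl1 was higher at 30 than at 10 days by log2 0.67 ± 0.26 (edgeR adjusted p = 0.0431) and at 60 than at 10 days by 0.74 ± 0.26 (0.0212), and both calls were lost with library totals (0.49 each). The first was also lost without 10-day library 2 or 3, 30-day library 2 or 3, or 60-day library 1 or 3, and with no filter, the replicate block (a term for the number that ends each library's description) or the title letter as a covariate. The second was also lost without 10-day library 2 or 3 or 60-day library 3 or 4.

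Loxl2, Loxl3 and Loxl4, the members with scavenger receptor domains, moved less. Loxl2 had 1.63, 4.22, 2.86 and 1.72 CPM at 0 days, 5.69, 1.61, 2.83 and 4.67 CPM at 10 days, 3.83, 6.01, 4.72 and 2.69 CPM at 30 days, and 5.30, 3.08, 6.37 and 6.04 CPM at 60 days. Its groups overlapped throughout. It was called at 60 days alone, 1.96-fold higher (log2 0.97 ± 0.39, edgeR adjusted p = 0.0421), and that call was lost without 0-day library 1, 3 or 4, 30-day library 3, or 60-day library 1, 3 or 4, and in the fits with the replicate block, with no filter and with limma-voom. At 10 and 30 days the 95% intervals of the log2 difference were -0.33 to 1.30 and -0.11 to 1.53, which include no change and more than a doubling. With library totals both were called higher (1.15 and 1.20).

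Loxl3 had 2.36, 3.85, 2.59 and 3.35 CPM at 0 days, 3.16, 2.33, 3.62 and 4.00 CPM at 10 days, 4.68, 5.06, 4.96 and 3.98 CPM at 30 days, and 5.07, 3.08, 5.20 and 6.62 CPM at 60 days. The 30-day libraries lay above all controls, and the 10-day and 60-day libraries overlapped them. It was 1.53-fold higher at 30 days (log2 0.61 ± 0.22, adjusted p = 0.0228) and 1.64-fold at 60 days (0.71 ± 0.22, adjusted p = 0.0120), by edgeR, and the 30-day call was lost without 0-day library 1 or 3 or 30-day library 2. At 10 days the difference was 0.10 (95% interval -0.37 to 0.57) and was not called, whereas with library totals it was 0.76 and called. Loxl3 was higher at 60 than at 10 days by 0.61 ± 0.22 (edgeR adjusted p = 0.0228), a call lost with library totals (0.36), without 10-day library 2 or 60-day library 4, and in a fit of these 2 groups alone.

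Loxl4 had 2.02, 2.13, 2.72 and 3.02 CPM at 0 days, 2.15, 1.41, 1.42 and 1.32 CPM at 10 days, 2.59, 2.37, 2.32 and 2.53 CPM at 30 days, and 3.09, 2.92, 2.86 and 5.51 CPM at 60 days. The 30-day libraries lay above all 10-day libraries, and the 60-day libraries above those of both. It was 1.56-fold lower than the controls at 10 days (log2 -0.65 ± 0.23, edgeR adjusted p = 0.0226), 0.011 with library totals, and the call was lost without 0-day library 3 or 4 or 10-day library 2, 3 or 4. At 60 days it was 1.46-fold higher than the controls (0.55 ± 0.23, edgeR adjusted p = 0.0472), and this call was lost in 10 of the 16 fits without 1 library: 0-day library 1 or 2, 10-day library 2, 3 or 4, any 30-day library, or 60-day library 4, without which the difference was 0.28. It was also lost with no filter, the replicate block, the 2 groups alone and limma-voom. From 10 to 30 days Loxl4 rose by 0.63 ± 0.23 (edgeR adjusted p = 0.0305), a call lost with library totals, with the title letter, and without 10-day library 2, 3 or 4 or 30-day library 1, 2 or 4. The difference between 60 and 10 days, 2.29-fold (log2 1.19 ± 0.23, edgeR adjusted p = 0.000267), was called in all 11 settings and all 16 fits without 1 library.

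**Figure D3:**
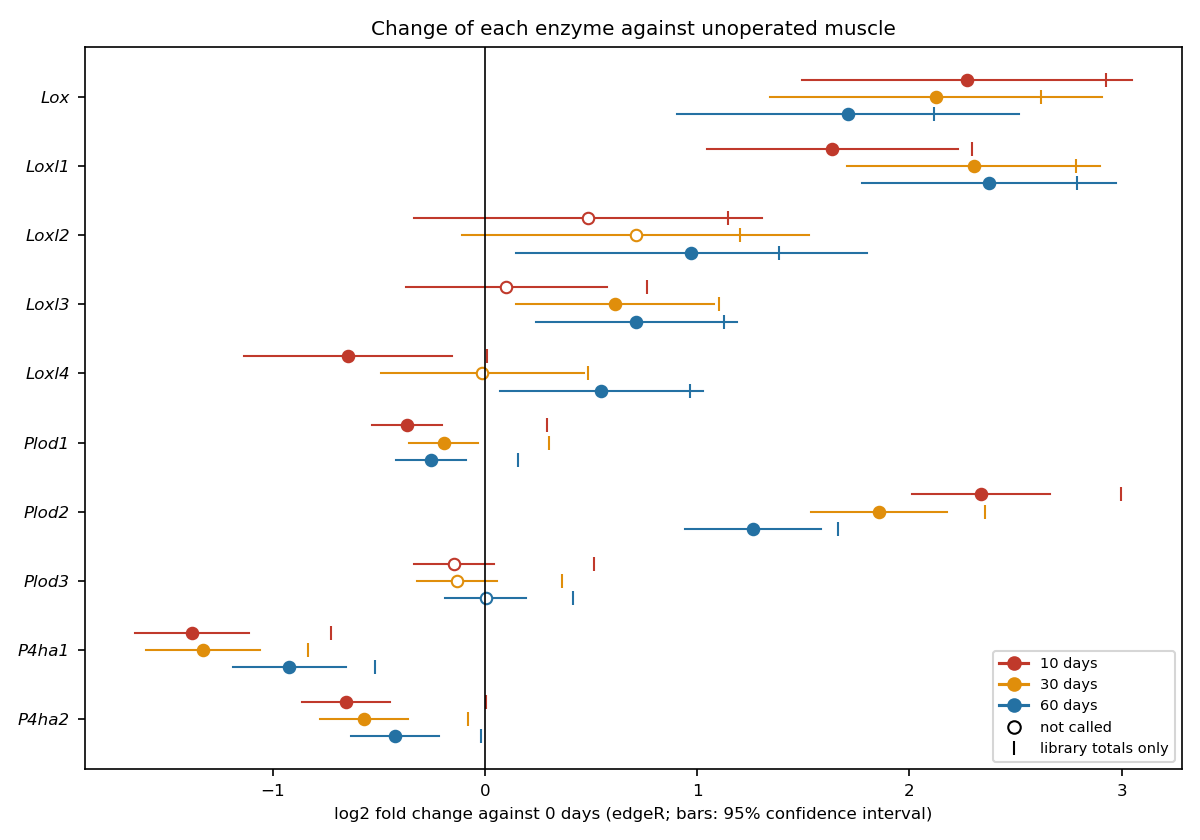
Log2 difference of each enzyme from 0 days at 10, 30 and 60 days (horizontal axis, edgeR with TMM scaling), with bars for the 95% interval, open circles for differences not called and vertical ticks for the value with library totals. Plod2, Lox and Loxl1 lie to the right of 0 at all 3 times, with Plod2 declining from 2.34 to 1.26 and Loxl1 going from 1.64 to 2.38, and P4ha1 lies to the left from -1.38 to -0.92.

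Between operated times, 2 members were higher and 1 lower at 30 than at 10 days (47.3% of all genes were called, 23.0% higher and 24.3% lower), 1 was higher and 1 lower at 60 than at 30 days (22.6%, 10.3% higher and 12.4% lower), and 4 were higher and 1 lower at 60 than at 10 days (61.1%, 29.1% higher and 31.9% lower). The lower member was Plod2 each time. Tested over the 4 groups together, 8 of 10 members were called, beside 84.7% of all genes. The exceptions were Loxl2 (edgeR adjusted p = 0.141) and Plod3 (0.230). By their libraries, 3 members lay wholly above and 3 wholly below the controls at 10 days (of all genes 59.0% did not overlap, 31.2% higher and 27.8% lower), by 30 days 4 and 3 (60.2%, of which 31.1% above and 29.1% below), and by 60 days 3 and 1 (50.0%, of which 24.0% above and 26.0% below). Between operated times, Loxl4 was wholly higher at 30 than at 10 days (43.8% of all genes did not overlap, 21.0% higher and 22.8% lower). At 60 days Loxl4 lay wholly above and Plod2 wholly below 30 days (20.1%, 8.87% higher and 11.3% lower), and against 10 days Loxl4 and P4ha1 lay wholly above and Plod2 wholly below (51.2%, 23.7% higher and 27.5% lower).

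Within the 0-day, 10-day and 60-day groups, 1 library was the highest or lowest in most of the lysyl oxidase family. In the 10-day group, library 1 was the highest in 4 of the 5 genes of the lysyl oxidase family and library 2 the lowest in 4 of 5. In the 60-day group, library 2 was the lowest in 4 of 5. Col1a1, the alpha chain of type I collagen and a main substrate, had 1151, 256, 509 and 870 CPM in the 10-day libraries, again highest in library 1 and lowest in library 2. It had 278, 166, 432 and 437 CPM at 60 days, again lowest in library 2, and the summed fibroblast markers were also lowest there (784, 769, 1053 and 1455 CPM in libraries 1 to 4) as they were in 10-day library 2 (563, 391, 424 and 518 CPM). At 0 days, library 2 was the highest in 4 of the 5 lysyl oxidase genes and library 1 the lowest in 4. Library 2 was the highest of that group in 8 of the 10 members. It also had the highest Col1a1 (74.3, 198, 150 and 99.3 CPM) and fibroblast markers (276, 423, 393 and 344 CPM), and library 1 the lowest of both. The 30-day group was mixed: library 2 was the highest in 3 of the 5 lysyl oxidase genes and library 4 the lowest in 3. Col1a1 (261, 677, 506 and 363 CPM) was also highest in library 2 but lowest in library 1. The fibroblast markers (768, 786, 850 and 711 CPM) were also lowest in library 4 but highest in library 3. The part of connective tissue content in the members' differences was not tested.

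Set against Col1a1 within each library, no difference from 0 days was detected for Lox or Plod2. The log2 ratio of Lox to Col1a1 differed from 0 days by 0.05, 0.37 and 0.47 at 10, 30 and 60 days (two-sided exact permutation test, p = 0.829, 0.429 and 0.257), and that of Plod2 to Col1a1 by 0.04, 0.03 and -0.06 (exact p = 0.914, 1 and 0.886). The spread of these ratios was wide, with an SD of 0.48 to 1.03 on the log2 scale, and a p that misses the threshold does not show that the ratios were equal. Within groups Plod2 did not regularly follow Col1a1. Plod2 was lowest where Col1a1 was highest in 10-day library 1 (67.9 and 1151 CPM) and 60-day library 4 (33.3 and 437 CPM). In the 30-day group Plod2 was highest in library 4 (76.6 CPM) and Col1a1 in library 2 (677 CPM). Among the controls both were highest in library 2 (18.2 and 198 CPM). The log2 ratio of P4ha1 to Col1a1 was -0.68 ± 0.62 (SD, n = 4) at 0 days. At 10, 30 and 60 days it was -4.37 ± 1.00, -3.82 ± 0.48 and -2.95 ± 0.78 (SD, n = 4). No operated library overlapped the controls (differences of -3.69, -3.14 and -2.27, exact p = 0.0286 each, the smallest possible, adjusted 0.0735). These differences also hold the rise of Col1a1, by log2 2.42 and 1.79 at 10 and 30 days, beside -1.38 and -1.33 for P4ha1. At 60 days Col1a1 had a mean of 328 CPM against 130 CPM at 0 days, beside a log2 difference of -0.92 for P4ha1.

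Within families the balance also shifted. The P4ha2 to P4ha1 ratio went from 0.528 ± 0.0379 at 0 days to 0.882 ± 0.125, 0.906 ± 0.143 and 0.766 ± 0.173 (SD, n = 4) at 10, 30 and 60 days. The first 2 of these did not overlap the controls (log2 differences 0.73 and 0.77, exact p = 0.0286, adjusted 0.0735), and the 60-day group did (0.51, exact p = 0.0571, adjusted 0.121). The Loxl2 to Lox ratio went from 3.00 ± 0.866 to 0.796 ± 0.170, 1.12 ± 0.236 and 1.78 ± 0.519. It was below all controls at 10 and 30 days (log2 -1.89 and -1.39, exact p = 0.0286, adjusted 0.0735), with 60 days overlapping (-0.74, exact p = 0.0571, adjusted 0.121). The control ratios rest on few Lox fragments (15, 41, 16 and 11).

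The other genes of collagen processing were described through a list of 31 genes, of which 27 were in the table and 24 were tested. Of these, 13 rose and 2 fell at 10 days, 15 and 3 at 30 days, and 14 and 4 at 60 days, beside 33.3%, 33.7% and 29.9% of all genes called higher and 29.4%, 30.9% and 29.1% called lower. The list had median log2 differences of 0.37, 0.74 and 0.86 against 0.06, 0.05 and 0.04 over all genes tested. With library totals the splits were 22 and 1, 21 and 1, and 21 and 2. The median of all genes tested was then 0.72, 0.54 and 0.45, and the share of all genes called with that scaling was not counted. Crtap, a partner in prolyl 3-hydroxylation, is listed at 0 in all 16 libraries, as is Col1a2, and no level is read from these entries, which can be failed estimates. Beside P4ha3, the largest rises at 10 days were of the procollagen N-propeptidase Adamts14 (log2 2.83), the channel Tmem38b (1.68), and the prolyl isomerases Fkbp10 (1.23) and Fkbp7 (0.93). Fkbp10, which works with Plod2 in telopeptide hydroxylation, stayed higher at 30 and 60 days (1.41 and 1.24), as did Fkbp7 (1.50 and 1.39). The C-propeptidase Bmp1, which also activates pro-Lox, was higher at all 3 times (0.77, 1.79 and 1.35), and Adamts14 remained higher at 30 and 60 days (1.86 and 0.91). The N-propeptidase Adamts2 was called higher at 30 and 60 days (0.88 and 1.20) and had 0.45 at 10 days, not called.

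Of the genes that fell in this list, Tgm2, a transglutaminase that crosslinks matrix proteins by another chemistry, was lower at 10 days (log2 -1.29) and at 30 days (-0.39, but 0.10 with library totals). The COPII coat gene Sec23a, needed for procollagen export, was lower at 30 and 60 days (-1.22 and -1.34). Ero1a, listed as Ero1l, which reoxidises protein disulfide isomerases, was lower at 30 days (-0.69, and -0.19, not called, with library totals) and at 60 days (-0.83). Fkbp14 at 10 days (-0.23) and the collagen galactosyltransferase Colgalt1 at 60 days (-0.20) were called lower, and with library totals both turned to called rises (0.43 and 0.21).

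**Figure D4:**
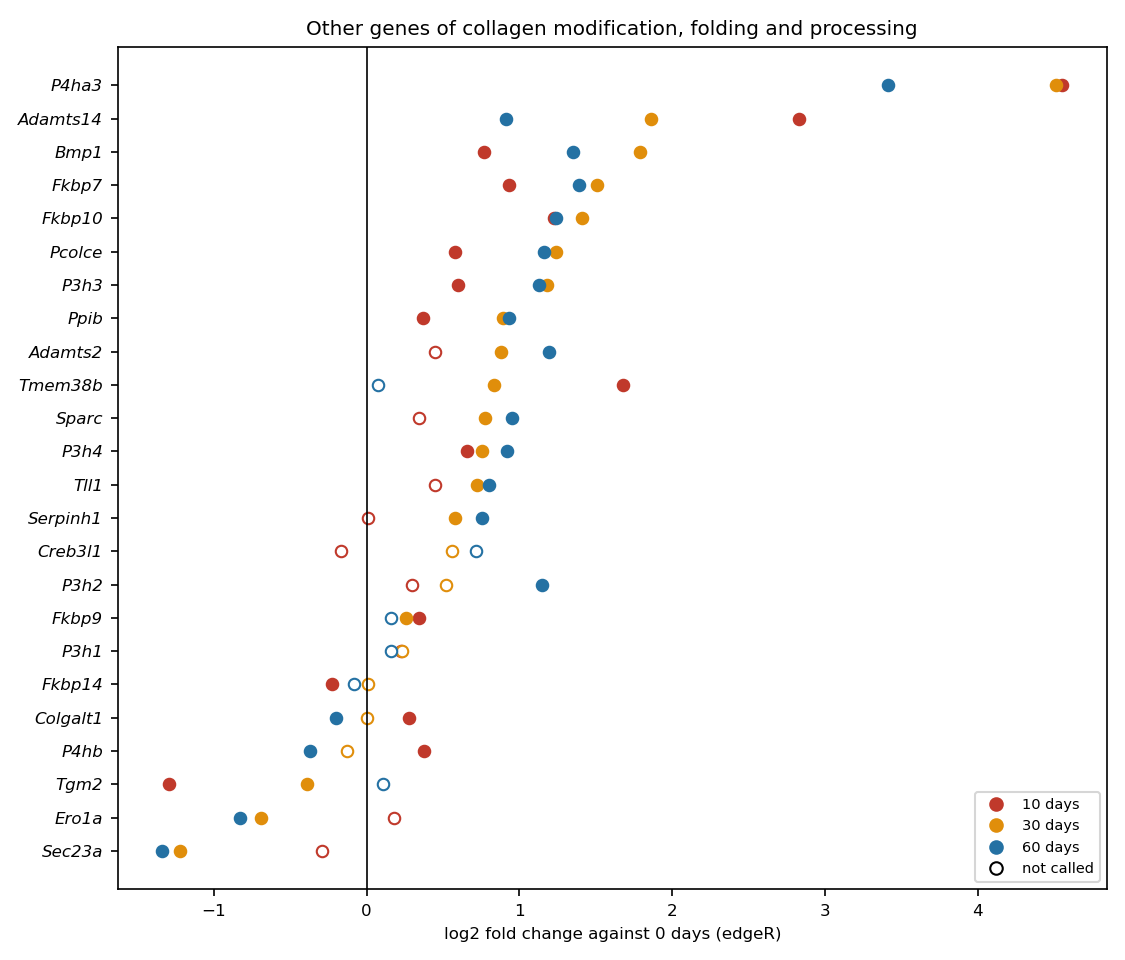
Log2 difference from 0 days at 10, 30 and 60 days (colours) for the 24 tested genes of the collagen-processing list, 1 gene a row, with open circles for differences not called by edgeR. P4ha3 lies farthest right at all 3 times, and Tgm2 (10 days) and Sec23a (30 and 60 days) lie farthest left.

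The substrate list held 21 matrix genes, 17 of them tested: collagen chains and Eln, and other matrix genes such as Postn, Fn1 and Fmod. It had 8 rises and 2 falls at 10 days, 13 rises and no fall at 30 days and 17 rises at 60 days. Of all genes, 33.3%, 33.7% and 29.9% were called higher and 29.4%, 30.9% and 29.1% lower. The medians were 0.32, 0.93 and 1.26 against 0.06, 0.05 and 0.04 over all genes tested. With library totals there were 12, 16 and 17 rises and no fall, where the median of all genes tested was 0.72, 0.54 and 0.45. The share of all genes called with that scaling was not counted. The largest rises were of Postn, which binds Bmp1 and promotes its action on Lox (log2 3.08, 2.27 and 1.99), of Col11a1 (3.02, 2.23 and 1.46) and, at 10 and 30 days, of Col1a1 (2.42 ± 0.46 and 1.79 ± 0.45). Col3a1 was higher by 1.08, 1.33 and 1.42, Fn1 by 1.48, 1.18 and 1.40, and Fmod by 0.77, 1.24 and 0.75. The elastin gene Eln, a substrate of Loxl1, was not called at 10 days (-0.07) and was higher by 1.13 and 1.39 at 30 and 60 days. Col5a3 (-1.03) and the basement membrane chain Col4a1 (-0.65) were lower at 10 days, and neither was called with library totals (-0.37 and 0.013). Col5a3 was called higher at 60 days (0.86). Col1a1 and Plod2 both had their highest mean at 10 days, and the median of the substrate list was highest at 60 days, as was the Loxl1 mean.

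The genes whose log2 CPM followed each enzyme most closely over the 16 libraries were found among 8229 genes. The correlations span the 4 groups, so they hold the differences between times, share the libraries and their scaling, and are given as a description. Lox was followed by Ckap4, Thbs2 and Mob3a (Pearson r of 0.95 each), Loxl1 by Mxra8 (0.98), Thbs4 and Mgp (0.97 each), and Loxl2 by the fibrillar collagens Col5a2 (0.92) and Col5a1 (0.91) and the protease Adamts12 (0.91). Loxl3 was followed by Arhgdib (0.90), Rcn3 and Gpm6b (0.89 each), and Loxl4 by Gatsl3, F11r (0.91 each) and Adamtsl3 (0.90). Plod2 was followed by Bcar3, Snx10 and Rab31 (0.98 each), and P4ha1 by Cdadc1 (0.98), Vldlr and Mbnl1 (0.97 each). P4ha2 was followed by Stradb (0.94), Eif4e and Pcmt1 (0.93 each), and Plod1 by Crocc (0.89), Sipa1l1 (0.87) and Elf2 (0.86). Plod3 was followed less closely, by Plekhg2 (0.77) and Klf2 (0.76). None of the 10 enzymes was among the genes compared for another.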

How the data were processed

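Per the labels' protocols, RNA came from a miRNeasy kit and libraries from a TruSeq mRNA kit. The deposited table holds the authors' expected counts per gene, neither scaled for depth nor for gene length, and 233 of its 17147 genes have a fractional value. The submitters' processing notes name bcl2fastq 1.8.4, FastQC, TopHat2 2.0.9, Bowtie2 2.1.0.0, Cufflinks, Cuffdiff 2.1.1 and the build rn5. The annotation, the strand setting and any filter are not given in the sources used here.

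Values were rounded to whole counts and filtered (filterByExpr by group, 11658 genes kept). TMM factors were used, and all 16 libraries entered a robust edgeR 4.0.16 quasi-likelihood model with a term per group and no covariate (R 4.3.3, limma 3.58.1 and DESeq2 1.42.0 for alternatives, python 3.11.15 and matplotlib 3.10.9 for sequences and figures). P-values were adjusted by Benjamini-Hochberg over all genes tested and called under 0.05. The SE is the log2 difference divided by the square root of F. Confidence intervals are 95%. Since the labels do not say which libraries are separate animals, p-values measure the spread between these libraries, which may be technical. The floor of 3 fragments was 0.0752 to 0.175 CPM, for counting error only. Ratios within libraries were tested by exact permutation, two-sided. The method was tested on simulated data. Of 17147 symbols, 14500 match RefSeq GRCr8 symbols, used for names and promoter windows only.

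The members, lists and tests were chosen with earlier results of these data known. From the collagen-processing and substrate lists, the genes named were those with the 5 largest called rises and falls at each time with a mean of at least 1 CPM, beside P4hb and Crtap, which were named after their values were seen; for each member, the 3 most correlated tested genes with a mean of at least 5 CPM were named, of which 1 gene is not reported here. Alternatives were RLE and upper-quartile factors, library totals, DESeq2, limma-voom, no filter, a mean of at least 1 CPM, a threshold of 0.01, a fit of only the 2 groups compared, the number ending each library's description as a block (replicate block), the final letter of each title (L or R) as a covariate, and omission of each library in turn.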

Additional observations from a re-analysis of the deposited data

Results flagged for a closer look

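In 5 of 64 groups of 4 libraries examined, 1 library stood apart by Dixon's criterion (gap over range above 0.829), where chance gives about 1 in 20. They were Loxl4 in 10-day library 1 (2.15 CPM), Plod3 in 10-day library 4 (17.7 CPM), and, at 60 days, Loxl4 in library 4 (5.51 CPM), Plod1 in library 4 (41.7 CPM) and P4ha1 in library 1 (52.8 CPM). The part of these libraries in the calls is given in the fits without them.

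The difference from the controls itself differed between operated times for 5 members, by edgeR with an adjusted p under 0.05. Between 10 and 30 days the log2 difference was 0.67 for Loxl1, 0.63 for Loxl4 and -0.48 for Plod2. Between 30 and 60 days it was -0.60 for Plod2 and 0.41 for P4ha1. Between 10 and 60 days it was 0.74 for Loxl1, 0.61 for Loxl3, 1.19 for Loxl4, -1.08 for Plod2 and 0.46 for P4ha1. These comparisons share the operated libraries.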

How the results depend on the processing

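The calls against 0 days of Lox, Loxl1, Plod2 and P4ha1 held under all 11 alternative settings and without each library in turn. Members called changed by more than 1.5 times as follows: at an adjusted p under 0.01, 5 members at 60 against 0 days, 0 at 30 against 10, 1 at 60 against 30 and 3 at 60 against 10 days; with upper-quartile factors, 5 at 30 against 10 and 8 at 60 against 10 days; with library totals, 1, 1 and 3 in these 3 comparisons of operated times, and 23 collagen-processing genes at 10 days; with the title letter as a covariate, 1 at 30 against 10 days; and with the 2 compared groups alone, 1 at 60 against 30 days. Without each library in turn, 1 to 5 members were called at 30 against 10, 1 to 2 at 60 against 30 and 3 to 6 at 60 against 10 days. The cause was not tested, beyond what fewer libraries or a stricter threshold sets.

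With library totals the log2 difference from 0 days reversed for Loxl4 (0.011 and 0.48 at 10 and 30 days), Plod1 (0.29, 0.30 and 0.16 at 10, 30 and 60 days), Plod3 (0.51 and 0.36 at 10 and 30 days) and P4ha2 (0.0047 at 10 days). Between operated times it reversed for Plod3 (-0.15 at 30 and -0.099 at 60 against 10 days), P4ha2 (-0.084 and -0.023), Plod1 (-0.14 at 60 against 10 days) and P4ha1 (-0.11 at 30 against 10 days). Other reversals were of differences near 0: Plod3 at 60 against 0 days with RLE factors (-0.0049), no filter (-0.018) and DESeq2 (-0.0076), Plod3 at 30 against 10 days with the title letter (-0.0058), and Loxl4 at 30 against 0 days with upper-quartile factors (0.11), a mean of at least 1 CPM (0.020) and limma-voom (0.0013). Leaving out a library gave ranges that cross 0 at 10 against 0 days for Loxl3 (-0.0084 to 0.25), at 30 against 0 days for Loxl4 (-0.085 to 0.10) and at 60 against 0 days for Plod3 (-0.033 to 0.061). It did so at 30 against 10 days for Lox (-0.43 to 0.064), Loxl2 (-0.021 to 0.51), Plod3 (-0.050 to 0.042) and P4ha1 (-0.038 to 0.13), and at 60 against 30 days for Loxl1 (-0.081 to 0.25) and Loxl3 (-0.055 to 0.27).

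Libraries with the same number did not deviate together (mean correlation 0.0013, range -0.24 to 0.22, and 4 of 16 libraries correlated best with their own number). No pairing by number was thus detected, and whether libraries share an animal or a batch cannot be read from this. With the replicate block, 7, 7 and 7 members were called at 10, 30 and 60 against 0 days, 2 at 30 against 10, 2 at 60 against 30 and 5 at 60 against 10 days. At 60 against 0 days Loxl2 and Loxl4 were no longer called (edgeR adjusted p = 0.0752 and 0.0601), nor was Loxl1 at 30 against 10 days (0.0704). Depth limits the low members most: Lox rests on 11 to 255 fragments a library.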
